A study of Mus musculus with 6 samples.

Results

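The genes of de novo lipogenesis were followed in a brown fat cell line taken through adipogenic differentiation, with and without knockout of MICT1. MICT1 is a microprotein of brown fat. The genes are the enzymes Acly, Acss2, Me1, Acaca, Fasn, Elovl6, Scd1 and Scd2 and the transcription factors Srebf1 and Mlxipl, taken by gene symbol from the table the authors deposited. Of these 10 genes 9 were listed among 13283 in all, and Mlxipl was not analysed here. They were selected on their known role with the difference between the groups in this same table already in view. Their own values, and their estimates from the fit over all genes, are therefore given as a description. No test of the members is used as support.

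RNA-seq covered 6 libraries, 3 per group, made from immortalized brown preadipocytes of the mouse (a BAT line) that stably expresses Cas9. The control group (Scr), whose genotype the labels give as WT, carried a scrambled sgRNA. The MICT1 KO group was knocked out by CRISPR with lentiviral sgRNA and sorted for GFP, and is a pool of edited cells rather than 1 clone. The labels do not tell which of the knockout pools each library came from, nor whether libraries of a group came from separate cultures, so p-values measure the spread between these libraries, which may be technical. All 6 libraries shared adipogenic differentiation in a medium with insulin, T3 and the PPARγ agonist rosiglitazone, and received 10 µM forskolin, an activator of adenylyl cyclase that raises cAMP, for 6 h at day 6. With no unstimulated library in the series, the values describe stimulated cells alone. MICT1 itself is not analysed here, and the knockout labels were therefore not checked on the targeted gene.

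De novo lipogenesis turns carbon from glucose and acetate into fatty acids. Cytosolic acetyl-CoA comes from citrate through ATP citrate lyase (Acly) or from acetate through acetyl-CoA synthetase (Acss2), and cytosolic malic enzyme (Me1) is one source of the NADPH that synthesis consumes. Acetyl-CoA carboxylase (Acaca) makes malonyl-CoA, fatty acid synthase (Fasn) builds palmitate from it, Elovl6 lengthens palmitate to stearate, and the stearoyl-CoA desaturases Scd1 and Scd2 place a double bond in these chains. SREBP-1 (Srebf1) and ChREBP (Mlxipl) are transcription factors known for driving these genes in answer to insulin and to sugar. In brown fat the pathway is known to run beside fatty acid oxidation.

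The promoters of Fasn and of 3 other members are shown first, since Fasn differs in direction from the rest and these 3 stand for a small and for larger differences. Each line gives the 250 bases before an annotated start site, from RefSeq on GRCm38.p6, which names the same build as the authors' mm10 alignment. They lie on chromosome 11 from 120824548 to 120824797 (minus strand) for Fasn, on chromosome 11 from 100528001 to 100528250 (minus strand) for Acly, on chromosome 2 from 155517793 to 155518042 (plus strand) for Acss2 and on chromosome 9 from 86695915 to 86696164 (minus strand) for the upstream of 2 Me1 starts. Capitals mark CCAAT, the letters bound by NF-Y, and GGGCGG, the GC box, each on either strand.
Fasn: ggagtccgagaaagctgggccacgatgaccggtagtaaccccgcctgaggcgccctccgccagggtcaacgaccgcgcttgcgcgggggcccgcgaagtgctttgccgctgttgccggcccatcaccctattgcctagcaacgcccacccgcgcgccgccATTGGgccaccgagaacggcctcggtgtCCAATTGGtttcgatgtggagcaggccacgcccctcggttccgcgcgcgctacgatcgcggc
Acly: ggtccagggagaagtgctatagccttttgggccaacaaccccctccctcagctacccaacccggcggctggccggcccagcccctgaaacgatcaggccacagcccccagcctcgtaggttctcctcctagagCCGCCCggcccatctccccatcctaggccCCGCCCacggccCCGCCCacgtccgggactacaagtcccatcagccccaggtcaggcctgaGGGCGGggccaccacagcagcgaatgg
Acss2: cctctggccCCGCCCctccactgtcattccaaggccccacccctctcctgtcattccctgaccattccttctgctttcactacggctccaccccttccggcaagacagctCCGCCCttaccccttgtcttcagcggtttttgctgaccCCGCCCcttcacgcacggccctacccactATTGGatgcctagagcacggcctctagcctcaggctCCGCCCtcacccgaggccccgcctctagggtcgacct
Me1: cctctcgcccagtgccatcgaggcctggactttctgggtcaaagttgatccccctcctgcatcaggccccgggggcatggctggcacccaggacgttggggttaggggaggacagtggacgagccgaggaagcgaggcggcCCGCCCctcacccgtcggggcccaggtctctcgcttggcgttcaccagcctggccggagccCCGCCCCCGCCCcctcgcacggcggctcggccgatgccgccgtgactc

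The Fasn stretch held 3 matches to CCAAT, at -90 to -86, -62 to -58 and -59 to -55 from the start, the last 2 overlapping on opposite strands, and no match to GGGCGG. Acss2 held 1 CCAAT match and 4 GC boxes in the bases shown, Acly 4 GC boxes and Me1 3. RefSeq windows of 300 bases, which add the 50 bases after the start, were found for 8 of the 10 genes, 12 windows in all. CCAAT occurred in 7 of these windows, against 37.4% of all 32851 windows in the mouse table, and GGGCGG in 6, against 35.7%. Genes with CCAAT were Acly, Acss2, Fasn, Me1, Mlxipl and Srebf1, and those with GGGCGG were the same without Fasn. The windows of Acaca and Elovl6, which were not higher in MICT1 KO, held neither. The only Acaca window, with upstream bases from 84195188 to 84195437, lies inside the span of the gene, which begins at 84129635. Its start site is thus not the outermost one annotated, and the bases before that outer start were not searched. The E-box CACGTG (7.15% of all windows) and TCACNCCAC, a consensus of the sterol regulatory element (1.24%), each occurred in 1 window of Mlxipl, and TATAAA (13.6%) in none. Both strands were searched with exact letters. These matches are a description of the sequence and not evidence of binding.

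The deposited values are a normalized signal, the estimated reads of a gene divided by a size factor of the library. The sums correspond to between 15445812 and 17925628 reads per library. A total of 12507 genes reached a value of 10 in 3 libraries or more. Their log2(value + 1) was compared by limma-trend, with p adjusted by the Benjamini-Hochberg method over all of them, and differences below are on this scale. An adjusted p under 0.05 was reached by 56.9% of the tested genes, 28.3% lower and 28.5% higher in MICT1 KO. Markers of adipocytes, which set the frame for a lipogenic pathway, were lower in MICT1 KO for 10 of 10 genes, with a median log2 difference of -3.96 and a summed value of 127944 to 152467 in Scr and 14763 to 21408 in MICT1 KO libraries. Of 7 markers of brown adipocytes only 2 were listed, Ucp1 and Ppargc1a, and both were low in Scr as well. Ucp1, the uncoupling protein that defines brown fat, was at 20.8 to 30.5 in Scr and 1.05 to 9.33 in MICT1 KO. Ppargc1a was at 2.04 to 8.90 in Scr and 1.04 to 15.8 in MICT1 KO, too low for the fit. Cidea, Cox8b, Elovl3, Prdm16 and Dio2 were not listed. Preadipocyte markers moved both ways (2 lower and 2 higher of 4 tested, summed 4363 to 5011 and 4693 to 4893). Of the macrophage markers Cd14 was higher and 2 did not pass (summed 247 to 363 in Scr and 488 to 622 in MICT1 KO), Cdh5, the 1 endothelial marker listed, was at 5.93 to 12.1 in Scr and 25.9 to 33.4 in MICT1 KO, and neither of 2 muscle markers passed. The paper also reports lower adipogenic genes in its CRISPR knockout cells and holds it plausible that their differentiation in culture was affected. The part of these markers in the results below was not tested.

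All 9 listed members had values above 10 in all 6 libraries, so none entered the fit through 1 group alone. In 7 members the 3 MICT1 KO values lay below the 3 Scr values, in Fasn they lay above them, and in Elovl6 the groups overlapped. Over all tested genes the KO values lay below in 31.2% and above in 30.9%. An adjusted p under 0.05 went with 7 lower and 1 higher member, beside the shares of 28.3% and 28.5% over all tested genes, and nothing is read from these counts since the genes were chosen with the contrast known. The median log2 difference of the 9 members was -1.07, against -0.0053 over all tested genes. In bulk RNA, fewer cells that use a gene and less of its RNA in each cell cannot be told apart.

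**Figure D1:**
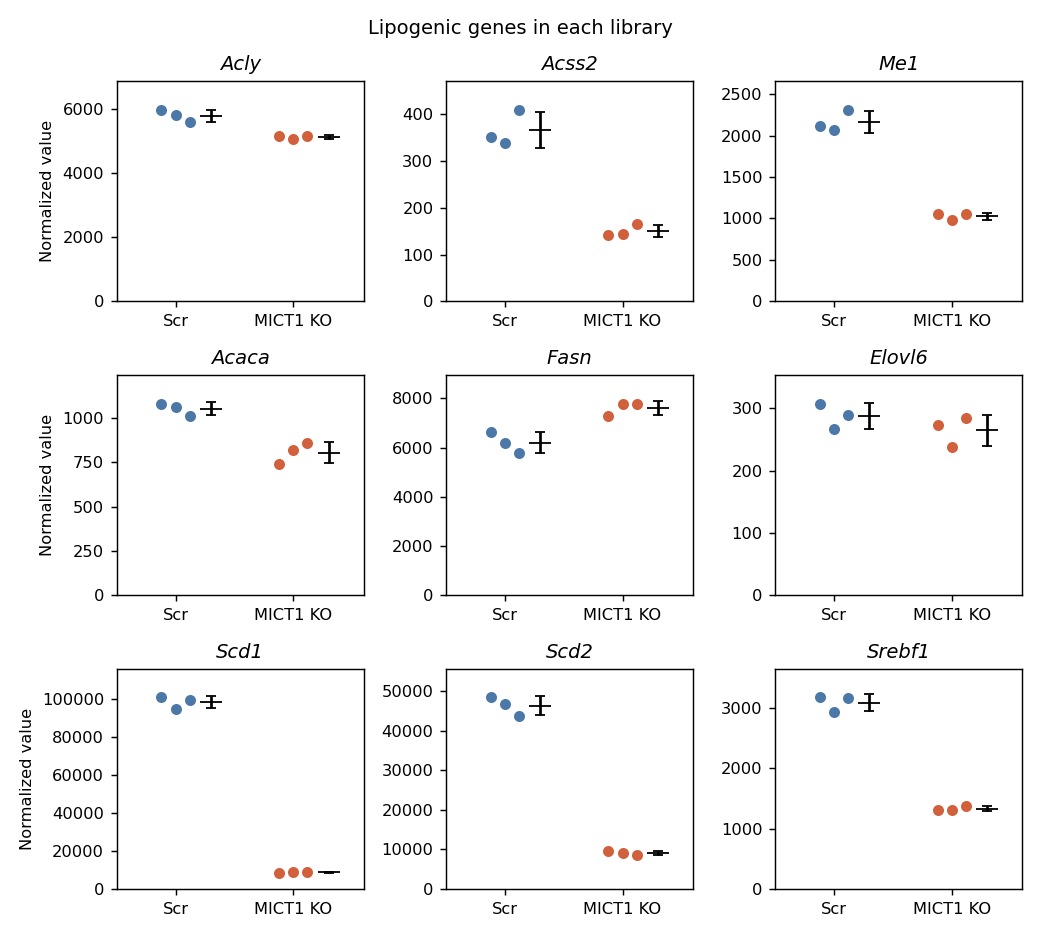
Normalized value (estimated reads over a size factor, linear axis from 0, a scale of its own for each gene) of the 9 lipogenic genes in 3 Scr and 3 MICT1 KO libraries. Points are libraries, the bar beside them the mean and the whiskers 1 SD; Fasn is higher in MICT1 KO, Elovl6 overlaps and the other 7 are lower, Scd1 the most.

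Fatty acid synthase was the member that stood apart. Fasn (chromosome 11, from 120805958 to 120825166, GRCm38) read 6636, 6192 and 5774 in Scr against 7266, 7789 and 7772 with MICT1 knocked out. The lowest MICT1 KO value was above the highest Scr value, and the means were 6201 ± 431 and 7609 ± 298 (SD, n = 3 each), and the MICT1 KO mean was 22.7% above that of Scr. The log2 difference was 0.30 with a standard error of 0.058 and a 95% interval from 0.18 to 0.42. It stood at percentile 72.1 of the differences of all tested genes, so the difference of Fasn was modest in size. By value Fasn was gene 413 of all those listed in Scr and gene 291 in MICT1 KO. Its promoter, with 3 CCAAT matches, is the first of those printed above. That stretch lies inside the span given here for Fasn, so its start site is not the outermost one annotated.

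Acaca, which supplies Fasn with malonyl-CoA, differed in the other direction. Acaca (chromosome 11, from 84129635 to 84401651) read 1082, 1064 and 1010.5 in Scr against 741, 818 and 858 with MICT1 knocked out, with no overlap. Its means were 1052 ± 37.3 and 806 ± 59.7 (SD, n = 3), a log2 difference of -0.39 (standard error 0.077). These consecutive enzymes of the pathway thus lay on opposite sides of 0 in the same libraries.

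The genes that supply acetyl-CoA differed unequally. Acly (chromosome 11, from 100476352 to 100528000) read 5971, 5803 and 5597 in Scr against 5161, 5056 and 5167 with MICT1 knocked out, a log2 difference of -0.17 (standard error 0.052). The groups did not overlap, and the means were 5790.3 ± 188 in Scr against 5128 ± 62.4 (SD, n = 3). Acss2 (chromosome 2, from 155518043 to 155562743) read 351, 339 and 410.1 in Scr against 142, 144 and 165 with MICT1 knocked out. Its mean was 2.44-fold lower in MICT1 KO, 150.4 ± 12.5 against 367 ± 37.9 (SD, n = 3), a log2 difference of -1.28 (standard error 0.13). Exons of Acss2 share 395 bases with Gss and 197 with Ggt7, both on the opposite strand, and the sources used here do not say whether counting used strand.

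Me1, the NADPH source among the members, was lower by a similar factor. Me1 (chromosome 9, from 86581363 to 86695914) read 2111, 2068 and 2311 in Scr against 1055, 979.9 and 1050.0 with MICT1 knocked out. The highest MICT1 KO value was under the lowest Scr value, and the mean was 2.10-fold lower, with a log2 difference of -1.07 (standard error 0.067).

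The desaturases held the largest differences. Scd1 (chromosome 19, from 44394450 to 44407709) read 100659, 94483 and 99173 in Scr against 8298, 8769.9 and 8888 with MICT1 knocked out. By value it was gene 2 of all those listed in Scr and gene 233 in MICT1 KO. The mean was 11.3-fold lower, 8652 ± 312 against 98105 ± 3224 (SD, n = 3), a log2 difference of -3.50 (standard error 0.054), and 59 of the 12507 tested genes had a difference as low or lower. Scd2 (chromosome 19, from 44293676 to 44306864) read 48480.2, 46813 and 43884 in Scr against 9684, 9152 and 8652 with MICT1 knocked out. Its mean was 5.06-fold lower, with a log2 difference of -2.34 (standard error 0.057). Scd1 made up 66.9% to 69.3% of the summed value of both genes in Scr and 46.1% to 50.7% in MICT1 KO libraries, ranges that did not overlap.

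Scd1 and Scd2 are paralogs that lie 87585 bases apart, and 223 of 4783 stretches of 50 bases of the Scd1 transcript also occur in an Scd paralog (4.66%). Turned back into reads, the values of the other members were whole numbers within 0.05 in all 6 libraries, or in 5 of 6 for Acly, whereas Scd1 and Scd2 were not whole in MICT1 KO replicates 1 and 2 (8704.486 and 10157.509 reads in replicate 1) and their sum was (18861.995 reads). Scr replicate 3 had the same pattern, with 97458.764 and 43125.244 reads and a sum of 140584.008. Scr replicate 2 had it too, with 101924.832 and 50500.166 reads and a sum of 152424.998. Scd2 was not whole in Scr replicate 1 either (49014.861 reads), where the Scd1 value carries no decimals and cannot be resolved. Some reads were therefore shared out between the pair in both groups. The sum of both genes, which such sharing does not alter, had a mean of 144497 ± 4115 (SD, n = 3) in Scr and was 8.11-fold lower with MICT1 knocked out (17815 ± 239.6, n = 3). Fasn and Acly share no stretch of 50 bases with any other annotated transcript, whereas 52.6% of those of Acaca and 32.8% of those of Me1 recur in other annotated genes, most of them in the gene models Gm5182 and Gm7049.

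Of the 9 members Elovl6, the elongase, differed least. Elovl6 (chromosome 3, from 129532386 to 129638495) read 308, 267 and 289 in Scr against 274, 237 and 284 with MICT1 knocked out. The groups overlapped, and the log2 difference of -0.12 (standard error 0.13) had a 95% interval from -0.38 to 0.14, which holds differences in both directions.

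Of the transcription factors, Srebf1 (chromosome 11, from 60199084 to 60224186) read 3179, 2929 and 3171 in Scr against 1304, 1314 and 1379.6 with MICT1 knocked out. Its mean was 2.32-fold lower, with a log2 difference of -1.21 (standard error 0.061) and no overlap. Srebf1 has 3 start sites in the RefSeq table, and a value per gene does not separate the isoforms that begin there. Fasn, a known target of SREBP-1, and Srebf1 itself thus differed in opposite directions in these 6 libraries.

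**Figure D2:**
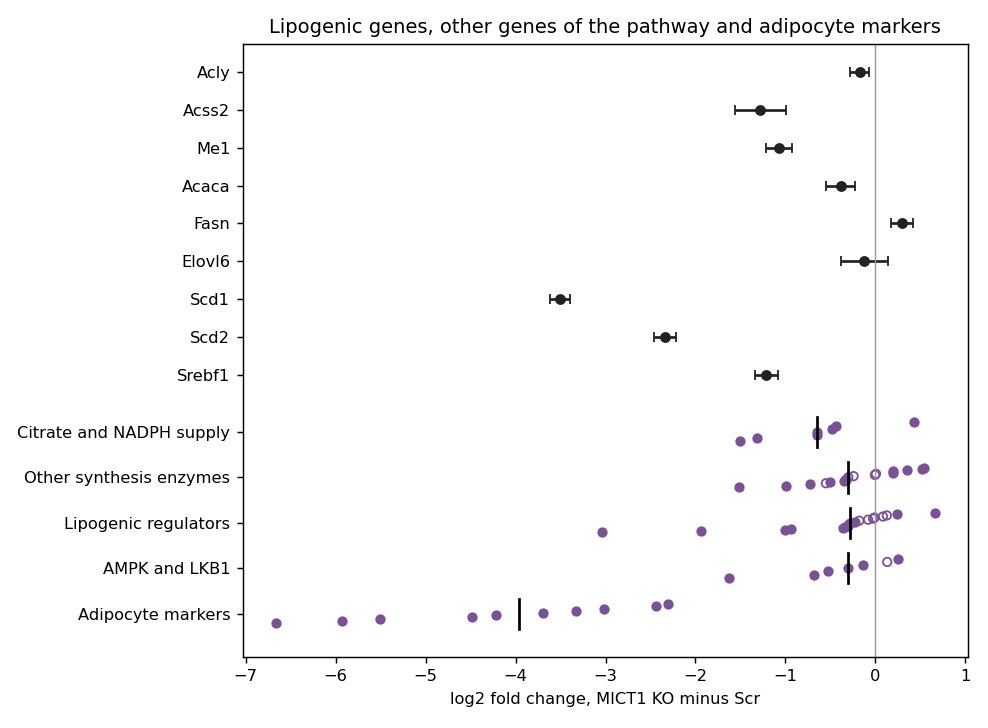
log2 difference of MICT1 KO minus Scr (x axis) for the 9 lipogenic genes, with 95% intervals, and for the tested genes of 4 lists of the wider pathway and of the adipocyte markers, 1 point a gene, filled where the adjusted p was under 0.05 (limma-trend) and with a black line at the list's median. Fasn lies right of 0 at 0.30 and Scd1 farthest left of the 9 at -3.50, while the 10 adipocyte markers lie between -6.66 and -2.31.

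Set against each other member in the same library, Fasn was relatively more abundant in MICT1 KO cells in 8 of 8 cases, with no overlap between the groups. The same held for 50.4% of the other 12506 tested genes set against Fasn, and for the 7 members that lay lower without overlap it follows from Fasn lying higher. The difference in the log2 ratio ran from 0.42 against Elovl6 and 0.47 against Acly to 2.64 against Scd2 and 3.80 against Scd1, with a median of 1.44. Ratios of RPKM (value per kilobase of exon, scaled to the sum of the library) show the pathway per length. For each unit of Fasn there were 33.9, 34.1 and 38.4 units of Scd1 in Scr libraries and 2.56, 2.52 and 2.56 in MICT1 KO libraries. For Scd2 the ratios were 14.6 to 15.2 in Scr and 2.23 to 2.67 in MICT1 KO. Srebf1 went from 0.919 to 1.07 units in Scr to 0.328 to 0.349 in MICT1 KO, and Me1 from 0.905 to 1.14 to 0.358 to 0.413. The Scr and MICT1 KO ratios of Acly (1.87 to 2.01 and 1.35 to 1.47) and of Acaca (0.105 to 0.112 and 0.0654 to 0.0708) lay nearer to each other.

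**Figure D3:**
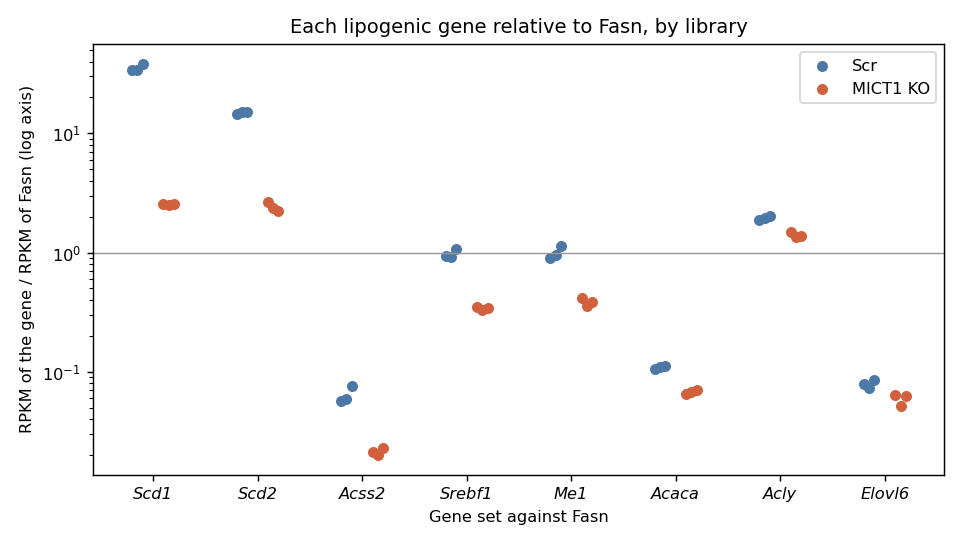
RPKM of each of 8 lipogenic genes divided by the RPKM of Fasn in the same library (log axis), in 3 Scr and 3 MICT1 KO libraries, 1 point a library. For every gene the 3 MICT1 KO points lie below the 3 Scr points, farthest for Scd1 (33.9 to 38.4 in Scr, 2.52 to 2.56 in MICT1 KO) and least for Elovl6.

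Per length, the order of mean levels was the same in both groups, Scd1, Scd2, Acly, Fasn, Me1, Srebf1, Acaca, Elovl6 and Acss2, but the gaps between neighbours differed. Length here is that of all annotated exons of a gene joined, 10163 bases for Acss2 and 17074 for Acaca. Their longest coding transcripts have 2931 and 9513 bases. The levels of Acss2 and Acaca, and the order of genes with close levels, therefore depend on the length used. In Scr, Scd1 stood at 1226 ± 58.5 RPKM and Scd2 at 519 ± 30.6, followed by Acly at 67.0 ± 2.87 (SD, n = 3). Fasn (34.6 ± 2.77), Me1 (34.3 ± 2.17) and Srebf1 (33.6 ± 1.99) had overlapping ranges there, whereas Acaca (3.77 ± 0.16), Elovl6 (2.74 ± 0.24) and Acss2 (2.21 ± 0.23) were far lower. In MICT1 KO the ranges of Scd1 (108 ± 4.57) and Scd2 (103 ± 5.19) overlapped, and so did those of Acaca and Elovl6. Fasn (42.6 ± 1.92) stood clear of Me1 (16.4 ± 0.63) and Srebf1 (14.5 ± 0.51). With this length Acaca, Elovl6 and Acss2 stayed under 4 RPKM in all 6 libraries, which for Acaca and Acss2 depends on the length used.

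Together the 9 genes took 0.999% ± 0.044 of the summed value of a library in Scr and 0.209% ± 0.0024 in MICT1 KO (SD, n = 3). Nearly all of that gap was the desaturases, which went from 0.883% ± 0.039 to 0.109% ± 0.0011. Without them the other 7 genes summed to 18954 ± 594 and 16319 ± 367 (SD, n = 3), 1.16-fold lower in MICT1 KO. Among these 7, Fasn held 31.1% to 33.8% of the sum in Scr and 45.6% to 47.7% in MICT1 KO libraries.

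**Figure D4:**
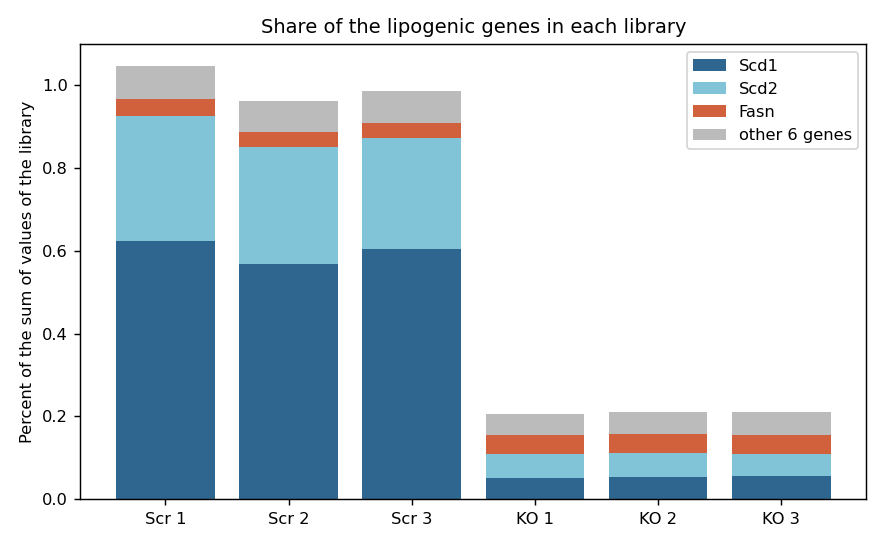
Percent of the summed value of each library (bars from 0) taken by Scd1, Scd2, Fasn and the other 6 lipogenic genes together. The 3 Scr bars average 0.999% and the 3 MICT1 KO bars 0.209%, and the Fasn band is slightly taller in MICT1 KO.

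Genes that feed citrate and NADPH into the pathway were mostly lower. Of 7 tested, 6 fell and 1 rose with an adjusted p under 0.05 by limma-trend, against 56.9% of all tested genes in either direction, with a median log2 difference of -0.65. Slc25a1, the carrier that brings citrate out of mitochondria for Acly, fell from 1291 ± 37.9 to 456 ± 55.4 (SD, n = 3), with a log2 difference of -1.51 ± 0.090 (SE) and an adjusted p of 7.77e-12. Idh1, an NADPH-producing isocitrate dehydrogenase of the cytosol, fell by 1.32 on the log2 scale (adjusted p = 1.06e-10, limma-trend), and Mdh1, the cytosolic malate dehydrogenase that makes the substrate of Me1, by 0.65 (adjusted p = 1.79e-08). The gene that rose was Me2, a mitochondrial malic enzyme, from 2425 ± 166 to 3264 ± 68.8 (SD, n = 3), a log2 difference of 0.43 (adjusted p = 3.35e-06, limma-trend). Me1 and Me2 thus lay on opposite sides of 0.

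The other enzymes of synthesis, elongation and desaturation went both ways. Of 17 tested, 7 fell, 5 rose and 5 did not pass (limma-trend), with a median of -0.30. Over all tested genes 28.3% were lower and 28.5% higher, so the share that rose was near that of all genes. Hacd2, a dehydratase of the elongation cycle, fell most, from 1302 ± 117 to 452 ± 11.1 (SD, n = 3), a log2 difference of -1.52 ± 0.083 (SE) with a limma-trend adjusted p of 1.97e-12. Acacb, the mitochondrial partner of Acaca, had a difference of -0.998 (adjusted p = 0.000374) and Oxsm, the condensing enzyme of mitochondrial fatty acid synthesis, of -0.73 (adjusted p = 0.0019). Elovl4, an elongase of very long chains, rose by 0.54 (adjusted p = 6.18e-05), Fads3 by 0.52 (adjusted p = 4.79e-05) and Fads2, the delta-6 desaturase of polyunsaturated fatty acids, by 0.35 (adjusted p = 0.00989). The groups overlapped in Fads2, whose adjusted p was 0.0576 without KO replicate 2 and 0.0673 without KO replicate 3. Scd4, a further paralog in the Scd cluster, was at 9.89 to 28.5 in Scr and 10.5 to 14.5 in MICT1 KO libraries and did not pass. With a maximum RPKM of at least 4 as the filter, fewer of these genes were tested and their median was -0.0057.

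Among regulators of the pathway, more genes were lower than higher. Of 19 tested, 11 fell, 2 rose and 6 did not pass (limma-trend), beside 28.3% lower and 28.5% higher among all tested genes, with a median of -0.28. Nr1h3, which encodes LXRα, a nuclear receptor that induces Srebf1, fell from 252 ± 27.5 to 30.1 ± 5.40 (SD, n = 3), a log2 difference of -3.03 ± 0.21 (SE) with a limma-trend adjusted p of 1.16e-10. Lpin1, a phosphatidate phosphatase that also restrains SREBP activity, fell by 1.94 (adjusted p = 7.89e-13). Insig1, which holds SREBP in the endoplasmic reticulum and is itself a target of SREBP, fell by 1.01 (adjusted p = 1.22e-07), with 1 Scr library at 1499.9 and the others at 2218 and 2359. The genes that rose were Mid1ip1, whose product promotes the assembly of acetyl-CoA carboxylase into its active polymers, with a difference of 0.66 (276 ± 32.5 in Scr and 435 ± 12.3 in MICT1 KO, SD, n = 3, adjusted p = 4.93e-05), and Mbtps1, the protease that makes the first cut in SREBP, with 0.23 (adjusted p = 0.00114). Mlxip and Mlx, the paralog and the partner of ChREBP, had differences of -0.22 and -0.30 (adjusted p = 0.00998 and 0.0122, limma-trend), which became 0.0599 for Mlxip without control replicate 3 and 0.0726 for Mlx without KO replicate 2. The 3 subunits of NF-Y, the factor of the CCAAT letters in the Fasn promoter, stood at -0.0099 (Nfya), 0.084 (Nfyb) and -0.29 (Nfyc), the last with an adjusted p of 0.00333, and these 3 were named after their values were seen.

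Subunits of AMPK, the kinase that inhibits acetyl-CoA carboxylase, and its activating kinase LKB1 (Stk11) were also measured. Of 7 tested, 5 fell, Stk11 among them, and 1 rose (limma-trend), against 28.3% and 28.5% of all tested genes, with a median of -0.31. Prkag2, a regulatory subunit, fell from 491 ± 48.0 to 159 ± 16.1 (SD, n = 3), a log2 difference of -1.62 ± 0.13 (SE) with a limma-trend adjusted p of 7.60e-10. The catalytic subunits Prkaa1 and Prkaa2 fell by 0.69 and 0.53 (adjusted p = 4.73e-08 and 0.00801), and the scaffold subunit Prkab1 rose by 0.25 (adjusted p = 0.01). Stk11, with a difference of -0.13 and an adjusted p of 0.0483, no longer passed with either other scaling or with 4 of the 6 libraries left out in turn.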

How the data were processed

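The authors deposited 1 table of normalized signal per gene for 3 Scr and 3 MICT1 KO libraries. The methods give strand-specific total RNA libraries and alignment with Partek to mm10, and the submitters' processing notes also name STAR and DESeq2; the labels describe library preparation by a sequencing company. The counting model and annotation are not given in the sources used here. Between 88.7% and 90.4% of the values from 0.5 to 20 were whole multiples (tolerance 0.01) of a step per library. The remainder were not whole and the values are described as normalized, so no count test was run. limma-trend was fitted to log2(value + 1) (R 4.3.3, limma 3.58.1), Benjamini-Hochberg adjusted over 12507 genes, after checks on simulated data. A fold on this scale understates the change of low genes. RPKM used the sum of a library and the length of all GENCODE vM21 exons of a gene joined, found for 12937 genes. Members, lists and tests were chosen with earlier results of these data known. All 10 members were to be named, and of each pathway list up to 3 genes per direction with the largest difference among those that passed; Scd4, Stk11, Mlxip, Mlx and the NF-Y subunits were added after their values were seen. Alternatives were other scalings, pseudocounts, filters, a replicate block and each library left out. With 3 libraries against 3, an exact test of 1 gene cannot give p below 0.1, and replicate error covers these libraries alone.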

Additional observations from a re-analysis of the deposited data

How the results depend on the processing

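Over 13 alternatives, none turned the direction of a result. The log2 difference of Fasn was 0.30 under each other scaling, pseudocount and filter and 0.25 to 0.35 with each library left out in turn, and that of Elovl6 -0.17 to -0.044. A maximum RPKM of at least 4, by the length of joined exons, removed Acaca, Elovl6 and Acss2 (5 members then had a difference below 0). It moved the medians of the other synthesis enzymes to -0.0057 and of AMPK and LKB1 to -0.22, with fewer genes tested. With no filter on low values the median of the citrate and NADPH genes was -0.57. With each library left out, 3 to 5 of the other synthesis enzymes rose (3 without control replicate 2, KO replicate 1 or KO replicate 3), the median of AMPK and LKB1 lay between -0.34 and -0.26 and that of the regulators between -0.26 and -0.22. Mcat did not pass in 5 of these 6 fits and Elovl1 in 4. The labels do not say whether the replicate numbers pair the samples. Deviations of same-numbered libraries correlated at -0.024, -0.015 and 0.064, and those of differently numbered libraries at -0.043 to 0.056. Deviations within a group of 3 constrain each other, so these values do not decide whether libraries were paired. With the replicate block 7055 genes passed, against 7113. Stk11 alone among the listed genes then lost its call. Depth limits the genes with the lowest values, such as Scd4.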
